A study of Mus musculus with 2 samples.

Results

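The genes described here are 9 peptide, receptor and signal genes of the Nppb- and Sst-expressing itch neurons of the dorsal root ganglion: Nppb, Sst, Il31ra, Osmr, Hrh1, Cysltr2, Npy2r, Plcb3 and Otoa. They were taken by gene symbol, from what is known of this neuron class, out of 23282 rows in each deposited count file, and all 9 had a single row. The control library came from wild-type mice treated with water ("after water" below). The AEW library ("after AEW") came from wild-type mice treated with acetone, ether and water, a chemical model of dry-skin itch. The series describes 5 consecutive days of AEW treatment, ganglia taken on day 6, and pooled RNA of 6 mice per group, read here as 1 pool per library. The sources used here do not give the strain, sex and age of the mice, the schedule of the water treatment or the spinal level of the ganglia.

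Each group is 1 library, so no difference below has a replicate check or a p-value. Depth was 9333882 counts after water and 14376228 after AEW. Levels are scaled CPM, that is counts per 1000000 after TMM scaling of the library sizes, where 1 count is worth 0.110 CPM after water and 0.0675 CPM after AEW. A ratio is AEW to control, with an exact 95% interval that covers counting error only. A gene was measured with at least 20 counts in the 2 libraries together, and called higher or lower with a ratio of at least 1.5-fold in either direction and an interval that excludes 1. The samples are labelled as neurons. The 20 pan-neuronal markers summed to 8994 CPM after water and 14409 CPM after AEW, and 9 Schwann cell markers, all of them measured, summed to 20715 and 17547 CPM, so the RNA held other cells of the ganglion as well. In bulk RNA, fewer cells of a type and less RNA per cell cannot be told apart.

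Neurons of this class carry itch from the skin to the spinal cord. Immune cells and skin release histamine, cysteinyl leukotrienes and interleukin 31, which bind receptors on the nerve endings, and Gq-coupled receptors act through phospholipase C on channels such as Trpv1. Interleukin 31 binds a receptor made of the Il31ra and Osmr chains, which signals through Janus kinases and STAT factors. In the spinal cord the neurons release the natriuretic peptide encoded by Nppb, which acts on the receptor Npr1, and somatostatin, which acts on inhibitory interneurons through Sstr2.

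The 9 genes did not move as 1 group. Nppb, Sst, Il31ra and Plcb3 were called higher after AEW, 4 of 9 beside 17.3% of all 14854 measured genes. Npy2r was the 1 member called lower, beside 14.9% of all measured genes. Osmr, Hrh1, Cysltr2 and Otoa were called neither. The median log2 ratio was 0.31 over the 9 genes and 0.03 over all measured genes. The members were chosen with results of these data known, so these counts describe the 9 genes only.

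**Figure D1:**
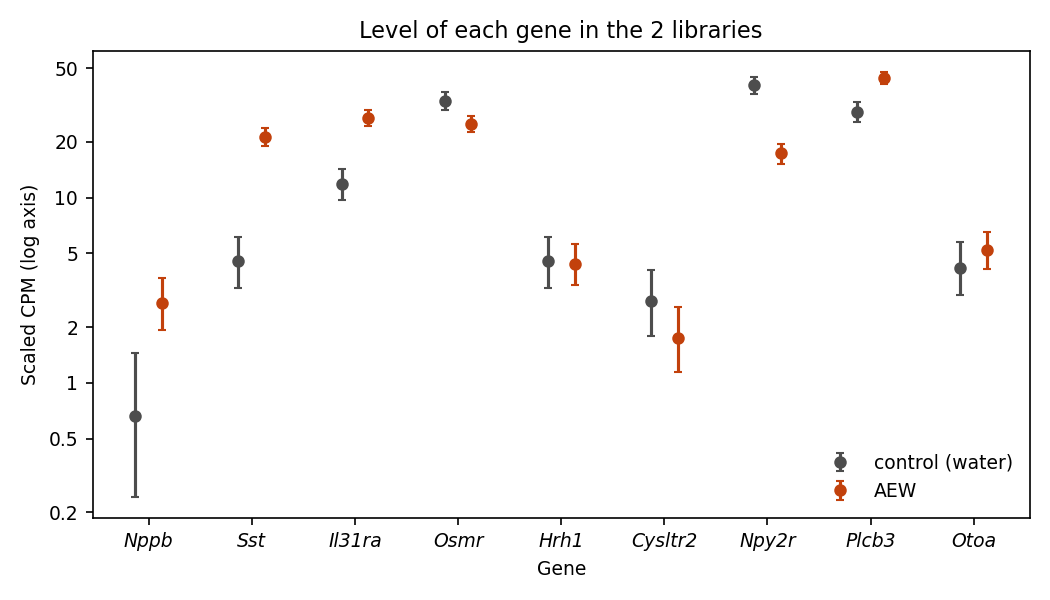
Scaled CPM of each gene (log axis) in the control library (grey) and the AEW library (orange). Bars are exact 95% Poisson intervals of the single library, not a spread over animals. The intervals of Nppb, Sst, Il31ra, Osmr, Npy2r and Plcb3 do not overlap between the libraries, and those of Hrh1, Cysltr2 and Otoa do. The share of all measured genes without such overlap was not computed, so this describes the plotted points only. Osmr was called neither despite it.

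Pan-neuronal markers were also higher after AEW. Of 20 pan-neuronal markers, 14 were called higher and none lower, beside 17.3% and 14.9% of all measured genes. The median log2 ratio of the markers was 0.91, and their summed level was 1.60-fold higher (1.59 to 1.62). Set against that sum, a scaling added after the data were seen, Sst and Nppb were still called higher. Il31ra was not called at a log2 ratio of 0.50, nor was Plcb3 at -0.08, with an interval that includes 0. On that scale Npy2r, Osmr, Hrh1 and Cysltr2 were called lower, at log2 ratios of -1.90, -1.09, -0.73 and -1.33. This gave 2 of 9 members higher beside 4.36% of measured genes, and 4 of 9 lower beside 51.8%. Set against the median ratio of the same markers, Sst at 1.32 was the only member called higher, beside 2.97% of measured genes. Nppb at 1.11 and Il31ra at 0.27 were not called. On this median scale 5 of 9 members were called lower, beside 66.3% of measured genes. Trpv1, the capsaicin receptor present in most neurons of this class, had 522 counts per 100000 pan-neuronal counts after water and 512 after AEW, a ratio of 0.981 (0.876 to 1.10).

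**Figure D2:**
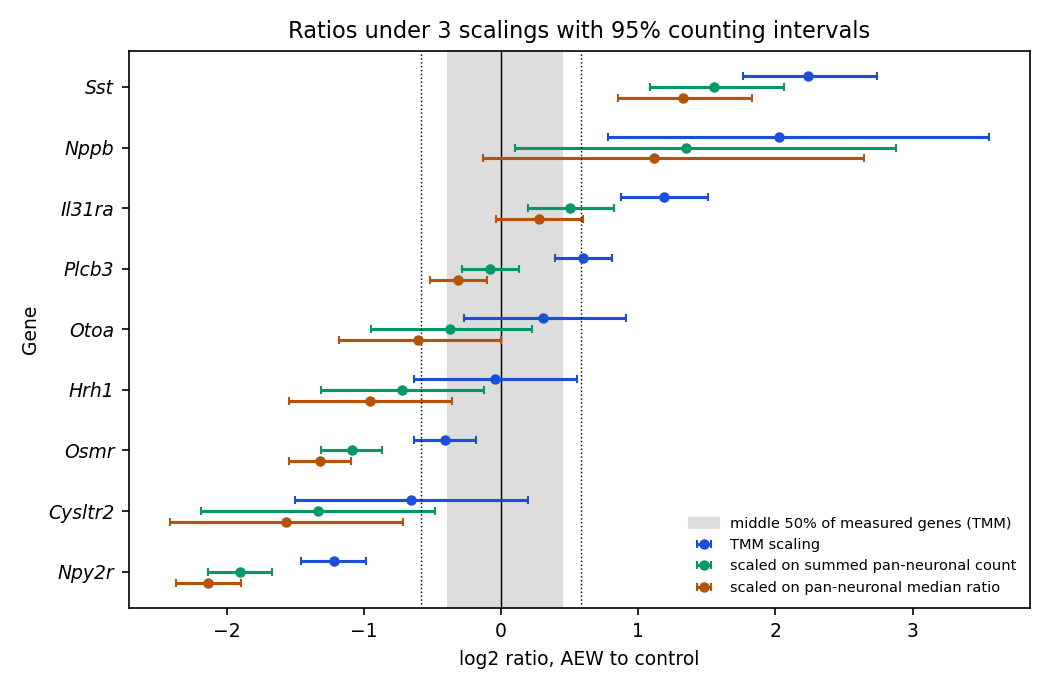
log2 ratio of AEW to control for each gene under TMM scaling (blue), scaling on the summed pan-neuronal count (green) and scaling on the median ratio of the pan-neuronal markers (brown), with 95% counting intervals. Grey marks the middle 50% of measured genes under TMM, from -0.39 to 0.44, and dotted lines mark 1.5-fold. Sst lay to the right of the 1.5-fold line and Npy2r to the left under each of the 3 scalings, whereas Plcb3, Otoa and Hrh1 lay within the dotted lines or beyond the left one once scaled on neuronal markers.

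The peptide genes had the 2 highest ratios of the 9. Sst encodes the somatostatin precursor (chromosome 16, 23889573 to 23890958, minus strand, mm10). It had 41 counts, 4.53 CPM, after water and 316 counts, 21.3 CPM, after AEW. The level was 4.71-fold higher after AEW (3.39 to 6.69), and 2.39% of measured genes had a ratio at least as high. Per 100000 pan-neuronal counts, Sst had 50.3 after water (36.1 to 68.3) and 148 after AEW (132 to 165), intervals that do not overlap. Nppb encodes the precursor of B-type natriuretic peptide (chromosome 4, 147985788 to 147987205, plus strand). It had only 6 counts, 0.663 CPM, after water and 40 counts, 2.70 CPM, after AEW. The ratio of 4.07 had a wide interval (1.72 to 11.8), and relative to the summed pan-neuronal count it was 2.54 (1.07 to 7.34), which still excludes 1. When the deeper library was thinned to the depth of the other, the interval of that second ratio included 1. With a summed count of at least 100 required, Nppb was not measured. For 100 Sst counts there were 14.6 Nppb counts after water (5.08 to 34.7) and 12.7 after AEW (8.87 to 17.6), so a difference in the balance of the peptides was not detectable at this depth.

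The part of each transcript that encodes the released peptide is shown because these 2 genes carry the highest ratios. Both stretches come from GENCODE M21 transcripts on mm10, written 5′ to 3′ on the coding strand without the stop codon. For Sst (chr16:23889732-23889815, minus strand) the last 28 of 116 codons encode somatostatin-28, and capitals mark the 14 codons of somatostatin-14. For Nppb (chr4:147986398-147986975, plus strand, a span that holds an intron) the last 45 of 121 codons are shown, and capitals mark the 17 codons from the first to the last cysteine, which close the ring of the peptide.
Sst: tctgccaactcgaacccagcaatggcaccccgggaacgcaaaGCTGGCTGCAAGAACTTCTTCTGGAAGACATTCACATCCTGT
Nppb: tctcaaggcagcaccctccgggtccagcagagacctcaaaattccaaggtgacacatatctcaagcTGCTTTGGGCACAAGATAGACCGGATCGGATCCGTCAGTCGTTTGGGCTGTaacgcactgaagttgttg

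Short promoter motifs were searched in the 250 bases upstream of RefSeq transcript starts (GRCm38.p6, the mm10 assembly), in 12 windows of the 9 genes and 32851 windows in all, on both strands. Sst held the cAMP response element TGACGTCA, which no other member held and which was present in 1.55% of all windows. Nppb held a TATA box, TATAAA, as the only member (12.4% of all windows), and a GATA site, AGATAA, together with Hrh1, Npy2r and Plcb3 (9.99%). The AP-1 site TGANTCA was found for Hrh1 and Plcb3 (6.75%), the STAT site TTCNNNGAA for Il31ra and Otoa (7.02%), and the homeodomain site TAATTA for none (4.84%). The Sst and Nppb matches are shown with their flanks, with the motif in capitals, since both peptide genes were called higher. The first base of each motif lies at -48 from the RefSeq start of Sst, and at -84 for the GATA site and -31 for the TATA box of Nppb. The matches do not overlap, and the transcript starts that GENCODE gives for both genes lie upstream of them. The regions are chr16:23890874-23890903 (minus strand), chr4:147985804-147985833 and chr4:147985857-147985886 (plus strand).
Sst cAMP response element: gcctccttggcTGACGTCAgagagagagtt
Nppb GATA site: ctgataaatcagAGATAAccccacccctac
Nppb TATA box: actcagccccagTATAAAaggcagaggcac
A match describes these letters only and was not tested for binding.

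Npr1 and Sstr2, the receptors through which the 2 peptides act in the spinal cord, were not called in the ganglion. Npr1, the receptor of the Nppb peptide, had 58 and 86 counts after water and AEW and a ratio of 0.91 (0.64 to 1.29). Sstr2, a somatostatin receptor, had 6 and 2 counts and was not measured. Of 8 measured genes of the natriuretic peptide system, 1 was higher, 2 were lower and 5 neither, beside 17.3% higher and 14.9% lower of all measured genes; these counts are near that background. The median of their log2 ratios was 0.00. Prkg2, a cGMP-dependent kinase, was 2.16-fold higher (1.58 to 2.98). Pde5a, a phosphodiesterase that degrades cGMP, was 2.71-fold lower (2.16 to 3.41), and Furin, a protease that cleaves many precursors, was 1.57-fold lower (1.38 to 1.78). Nppa, which encodes the atrial peptide, was not measured at 10 and 8 counts.

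The prohormone convertases Pcsk1 and Pcsk2, which cut peptide precursors, were called higher, as Sst was. Furin, which also cuts precursors and was counted in the natriuretic peptide list, was 1.57-fold lower (1.38 to 1.78). Of 6 measured genes of the somatostatin system, 3 were higher, 0 lower and 3 neither, beside 17.3% higher and 14.9% lower of all measured genes; the median of their log2 ratios was 0.56. Pcsk1 and Pcsk2 were 1.77-fold (1.501 to 2.10) and 1.96-fold (1.77 to 2.16) higher. Sstr1, a somatostatin receptor, was the third, at 15 and 48 counts and a ratio of 1.95 (1.08 to 3.76). Cpe, which trims the cut peptides, had a ratio of 0.86 (0.83 to 0.89) and was not called. Relative to the summed pan-neuronal count, no gene of the 6 pathway lists was called higher, beside 4.36% of all measured genes on that scale.

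Cells other than sensory neurons that can express Sst were looked at through their markers. Of 13 spinal cord markers, Slc6a5, Lbx1 and Mnx1 were at 0 in both libraries, while the other 10 were detected in at least 1 library. Among these, Slc32a1, the vesicular transporter of inhibitory neurons, had 78 counts after water and 48 after AEW, and the astrocyte genes Slc1a2 and Aqp4 had 401 and 483, and 127 and 196. The summed list was lower after AEW, at a ratio of 0.75 (0.68 to 0.83), and the part of such RNA in the Sst value was not tested. Pax2, a gene of inhibitory spinal neurons and of other tissues, was the 1 member of that list called higher, at 0 and 23 counts. Of 4 Merkel cell markers, Atoh1 was at 0 in both libraries, and the list summed to 4 counts after water and 8 after AEW.

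Il31ra and Osmr, the 2 chains of the interleukin 31 receptor, differed in their ratios. Il31ra, the chain specific to this cytokine (chromosome 13, 112519898 to 112594360, minus strand), had 107 counts, 11.8 CPM, after water and 398 counts, 26.9 CPM, after AEW. It was 2.27-fold higher (1.83 to 2.84). Its exons share 45 bases with Gm3226 on the same strand. Relative to the summed pan-neuronal count the ratio was 1.42 (1.14 to 1.77), under 1.5-fold but with an interval above 1. Osmr, the chain shared with the oncostatin M receptor (chromosome 15, 6813577 to 6874969, minus strand), had 301 counts, 33.2 CPM, after water and 371 counts, 25.03 CPM, after AEW. Its ratio was 0.75 (0.65 to 0.88), which did not reach 1.5-fold. For 100 Osmr counts there were 35.5 Il31ra counts after water (28.2 to 44.5) and 107 after AEW (92.9 to 124). This within-library ratio, which needs no scaling between libraries, was 3.02-fold higher after AEW (2.31 to 3.96).

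Il6st encodes gp130, the chain with which Osmr forms the oncostatin M receptor. It had 96.1 CPM after water and 64.3 CPM after AEW, a ratio of 0.67 (0.61 to 0.73) that was just short of the rule. The Osmr to Il6st ratio was 34.6 per 100 after water and 38.9 after AEW, and its AEW over control value of 1.12 (0.94 to 1.35) includes 1. Osmr is also expressed by fibroblasts, and 5 of 9 fibroblast markers were lower, with none higher and a summed ratio of 0.48. Il31ra and Osmr are also expressed by keratinocytes, whose 13 listed genes in the table summed to 29.5 CPM after water and 957.5 CPM after AEW, all 13 called higher. For both marker lists, the shares over all measured genes were 17.3% higher and 14.9% lower. The part of fibroblast and keratinocyte RNA in the Osmr and Il31ra values was not tested.

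Most signal genes downstream of the receptor did not pass the rule. Of 12 measured genes of interleukin 31 and oncostatin M signalling, 1 was higher, 1 lower and 10 neither, beside 17.3% and 14.9% of all measured genes; the median of their log2 ratios was -0.09. Jak1, the Janus kinase that is abundant in this neuron class, had 529 and 556 CPM and a ratio of 1.05 (1.01 to 1.09). Jak2 had a ratio of 0.73 (0.60 to 0.88) and Stat3, a transcription factor they activate, of 1.17 (1.12 to 1.22). Tyk2, another Janus kinase, was 1.57-fold higher (1.22 to 2.02), and Socs3, a feedback inhibitor induced by STAT3, was 1.75-fold lower (1.46 to 2.09). The ligand genes Il31 and Lif had 0 counts in both libraries, which at a floor of 3 counts allows up to 0.331 CPM after water and 0.202 CPM after AEW.

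Hrh1 and Cysltr2, receptors of histamine and of cysteinyl leukotrienes, were not called. Hrh1 (chromosome 6, 114397936 to 114483296, plus strand) had 41 counts, 4.53 CPM, after water and 65 counts, 4.39 CPM, after AEW, a ratio of 0.97 (0.65 to 1.47). Cysltr2 (chromosome 14, 73025603 to 73049114, minus strand) had 25 counts, 2.76 CPM, after water and 26 counts, 1.75 CPM, after AEW, a ratio of 0.64 (0.35 to 1.15). Both intervals include 1 and are wide, so smaller changes were not detectable at this depth. Relative to the summed pan-neuronal count both had intervals below 1, at 0.60 (0.40 to 0.92) for Hrh1 and 0.40 (0.22 to 0.72) for Cysltr2. On that scale 51.8% of all measured genes were called lower and their median log2 ratio was -0.65. The log2 ratio of Hrh1, -0.73, lay near that median. Endothelial cells express both receptors too. Of 9 endothelial markers 3 were lower and none higher, beside 14.9% lower and 17.3% higher of all measured genes. The markers summed to 143 CPM after water and 117 CPM after AEW. The part of endothelial RNA in the Hrh1 and Cysltr2 values was not tested.

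Most measured genes that make or receive the same mediators were called lower. Of 9 measured genes of the histamine and leukotriene system, 6 were lower, 0 higher and 3 neither, beside 14.9% lower and 17.3% higher of all measured genes; the median of their log2 ratios was -1.15. Hdc, which makes histamine, was 3.43-fold lower (2.22 to 5.40), and Cysltr1, the other cysteinyl leukotriene receptor, 3.66-fold lower (2.02 to 6.91). The remaining 4 were Alox5, Alox5ap and Ltc4s, which make leukotrienes, and Ltb4r1, a leukotriene B4 receptor, between 1.60-fold and 2.92-fold lower. Of 12 macrophage markers, 12 were lower, and their summed level was 871 CPM after water and 329 CPM after AEW. The part of immune cell RNA in these 6 calls was not tested.

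Npy2r, the Y2 receptor of neuropeptide Y, was lower after AEW. Npy2r (chromosome 3, 82538383 to 82548084, minus strand) had 366 counts, 40.4 CPM, after water and 257 counts, 17.3 CPM, after AEW. It was 2.33-fold lower (1.98 to 2.75), and 4.58% of measured genes had a ratio at least as low. The summed pan-neuronal count put it 3.73-fold lower (3.17 to 4.40), on a scale where 51.8% of measured genes were called lower. Npy2r is also known from a class of myelinated nociceptors, which bulk RNA does not separate from the itch neurons. Its ligand gene Npy, which sensory neurons express after nerve injury, was 3.19-fold lower (2.61 to 3.90), from 32.7 to 10.3 CPM. Npy1r, the Y1 receptor, had 150 and 190 counts and a ratio of 0.77 (0.62 to 0.97), which did not pass the rule. Of 3 measured genes of the neuropeptide Y system, Npy was the 1 called lower and none was higher, beside 14.9% lower and 17.3% higher of all measured genes. The median log2 ratio of these 3 genes was -0.50. For 100 Npy1r counts there were 244 Npy2r counts after water (201 to 297) and 135 after AEW (112 to 164).

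Plcb3, the phospholipase C isoform that couples Gq receptors to Trpv1 in itch neurons, passed the rule by a small margin. Plcb3 (chromosome 19, 6952325 to 6976470, minus strand) had 264 counts, 29.2 CPM, after water and 655 counts, 44.2 CPM, after AEW, a ratio of 1.52 (1.31 to 1.76). The call was lost under upper quartile scaling at a log2 ratio of 0.57 and after a correction for GC content at 0.45. On the summed pan-neuronal count the log2 ratio was -0.080 (-0.29 to 0.13), an interval that includes 0. On the median ratio of the pan-neuronal markers it was -0.31 (-0.52 to -0.10), and it was not called on either scale. Per 100000 pan-neuronal counts, Plcb3 had 324 after water (286 to 366) and 307 after AEW (284 to 331). Its sister genes did not pass the rule. Plcb1 had a ratio of 0.96 (0.83 to 1.12), Plcb4 of 0.74 (0.57 to 0.94) and Plcb2, at 13 and 15 counts, of 0.70 (0.31 to 1.61). Within each library, Plcb3 per 100 Plcb1 counts was 90.4 after water (76.3 to 107) and 142 after AEW (126 to 160). Exons of Plcb3 share 22 bases with Ppp1r14b on the opposite strand, and the sources used here do not say whether counting used strand.

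Genes of the Gq pathway were called about as often as measured genes in general. Of 17 measured, 3 were higher, 3 lower and 11 neither, beside 17.3% higher and 14.9% lower of all measured genes; the median of their log2 ratios was 0.05. Prkce, a protein kinase C that sensitises nociceptors, was 2.22-fold higher (2.09 to 2.35). Rgs4, which shortens Gq signals, was 2.10-fold higher (2.05 to 2.16), and Trpv1 1.57-fold (1.40 to 1.76). Pla2g4a, the cytosolic phospholipase A2, was 3.59-fold lower (2.39 to 5.49), and the inositol trisphosphate receptor Itpr2 1.89-fold lower (1.69 to 2.11). Itpr1 was the third lower gene. Gnaq, the Gq alpha subunit, had a ratio of 1.42 (1.36 to 1.48) and Trpa1, the mustard oil receptor, of 1.48 (1.23 to 1.79).

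**Figure D3:**
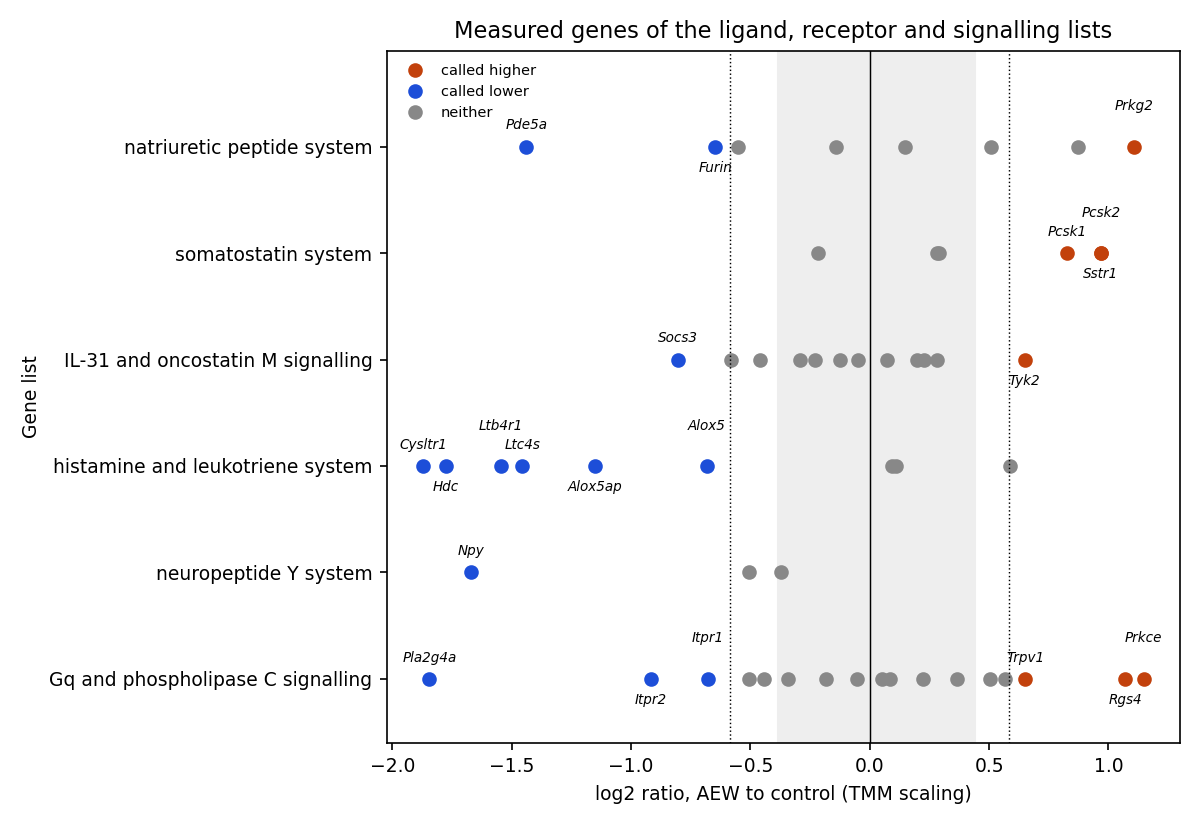
log2 ratio of AEW to control (TMM scaling) for each measured gene of 6 lists of ligands, receptors and signal genes, with genes called higher in orange, lower in blue and neither in grey. Grey shading marks the middle 50% of measured genes and dotted lines mark 1.5-fold. The histamine and leukotriene list has 6 of its 9 genes to the left of the lower line, and 3 of the 6 somatostatin system genes lie to the right of the upper line.

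Otoa, which encodes otoancorin, a protein of the inner ear that marks this neuron class in the ganglion, was not called. Otoa (chromosome 7, 121081650 to 121163097, plus strand) had 38 counts, 4.20 CPM, after water and 77 counts, 5.20 CPM, after AEW, a ratio of 1.24 (0.83 to 1.88). For 100 Sst counts there were 92.7 Otoa counts after water (58.01 to 148) and 24.4 after AEW (18.7 to 31.4). The AEW over control value of this pair was 0.263 (0.154 to 0.452), so the ratios of Sst and Otoa differed beyond counting error, although both mark the same class.

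Other markers of the class were also mixed. Of 5 listed, Trpv1 and Grik1, a kainate receptor subunit, were higher, Nts was lower, and Jak1 and Htr1f, a serotonin receptor, were neither. Beside these, 17.3% of all measured genes were higher and 14.9% lower. Grik1 was 1.56-fold higher (1.45 to 1.68). Nts, the neurotensin gene, had 2363 counts after water and 574 after AEW and was 6.74-fold lower (6.15 to 7.39). The list had a median log2 ratio of 0.07. Scaled on the summed pan-neuronal count, none of the list was higher and 3 were lower, beside 4.36% and 51.8% of all measured genes.

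Pairs of genes counted in the same library were compared next. Of pairs between members, the design named only Nppb with Sst and Il31ra with Osmr. Sst had the highest ratio of the 9 genes and Npy2r was the only member called lower. The pair of Sst and Npy2r therefore restates these extremes and is no separate result. For 100 Npy2r counts there were 11.2 Sst counts after water (7.91 to 15.5) and 123 after AEW (104 to 146), a 10.98-fold difference (7.57 to 16.2). For 100 Il31ra counts there were 38.3 Sst counts after water and 79.4 after AEW, a difference of 2.07-fold (1.39 to 3.14).

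Sst was also set against the receptors that define the neighbouring itch and non-peptidergic classes. Mrgpra3, a pruritogen receptor of a separate itch class, and Mrgprd, the beta-alanine receptor, had ratios of 4.93 (4.07 to 6.03) and 4.37 (3.94 to 4.85). The count ratio of Sst to Mrgpra3 was 34.7 per 100 after water and 33.2 after AEW, and the AEW over control value was 0.95 (0.65 to 1.43). That of Sst to Mrgprd was 9.76 and 10.5 per 100, with a value of 1.08 (0.76 to 1.56). Both intervals include 1, so differences within these bounds were not detectable. For Il31ra to Mrgpra3 the interval lay below 1, with an AEW over control value of 0.46 (0.34 to 0.62). Mrgpra3 belongs to a family of closely similar genes, and how reads with several matches were assigned is not known here, so its value is uncertain. Of 3 measured markers of the Mrgpra3 class, 1 was higher and none lower. The other 2, Gfra1 at a ratio of 0.92 and Calcb at 1.02, were called neither. Of 7 of the Mrgprd class, 4 were higher and 1, Ret, was lower, at a ratio of 0.64. Over all measured genes, 17.3% were higher and 14.9% lower.

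**Figure D4:**
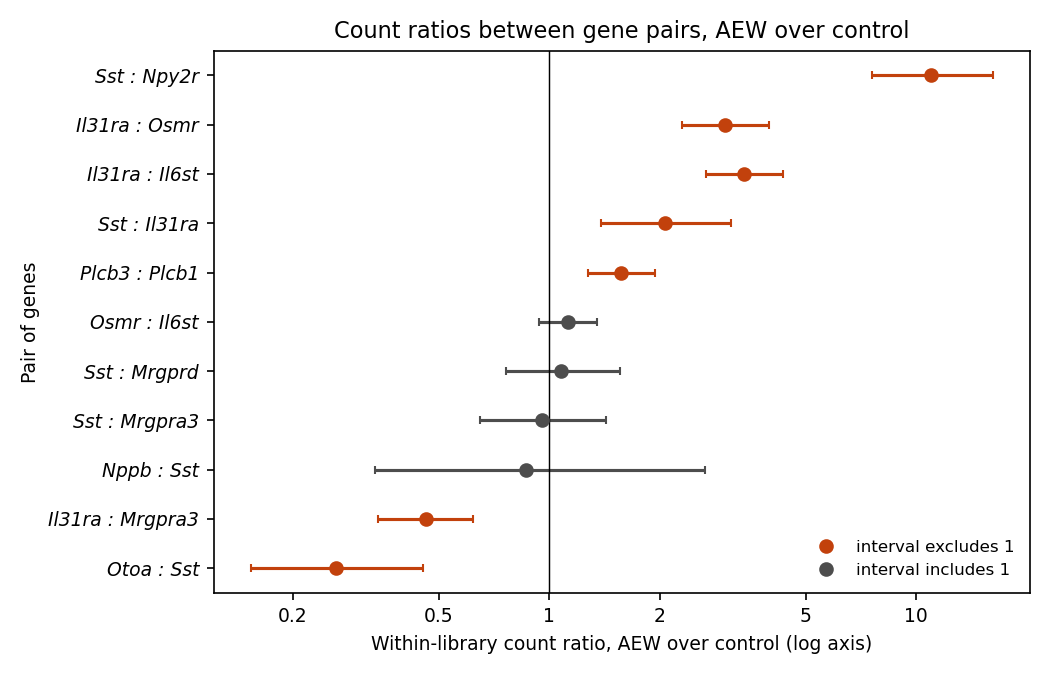
Count ratio of 2 genes within a library, given as AEW over control (log axis) with exact 95% intervals that cover counting error only. Sst against Npy2r, at 10.98, and Il31ra against Osmr, at 3.02, lie to the right of 1, Otoa against Sst, at 0.263, lies to the left, and the intervals of Sst against Mrgpra3, Sst against Mrgprd, Nppb against Sst and Osmr against Il6st include 1. The pairs of Sst with Npy2r and with Otoa restate the high ratio of Sst.

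Levels of different genes were compared per kilobase of exon (GENCODE M21, all exons of a gene merged). That scale holds only if reads covered whole transcripts, whereas kits of the name given in the labels usually read the 3′ end, where counts do not grow with length. On the per-kilobase scale Npy2r was the highest of the 9 after water at 11.9 CPM per kilobase, followed by Sst at 6.28, Plcb3 at 4.19, Osmr at 2.74, Il31ra at 2.08, Hrh1 at 1.02, Cysltr2 at 0.961, Nppb at 0.849 and Otoa at 0.497. Neighbours whose counting intervals overlap were Sst and Plcb3, Osmr and Il31ra, and the run from Hrh1 to Otoa. In the AEW library Sst was the highest at 29.6, followed by Plcb3 at 6.35, Npy2r at 5.13, Il31ra at 4.73, Nppb at 3.46, Osmr at 2.07, Hrh1 at 0.986, Otoa at 0.616 and Cysltr2 at 0.611. There the overlapping neighbours were Npy2r and Il31ra, Il31ra and Nppb, Hrh1 and Otoa, and Otoa and Cysltr2. In CPM with no length scale, Npy2r at 40.4 was again the highest after water, but after AEW Plcb3 at 44.2, Il31ra at 26.9 and Osmr at 25.03 lay above Sst at 21.3, so the place of Sst depends on the scale.

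**Figure D5:**
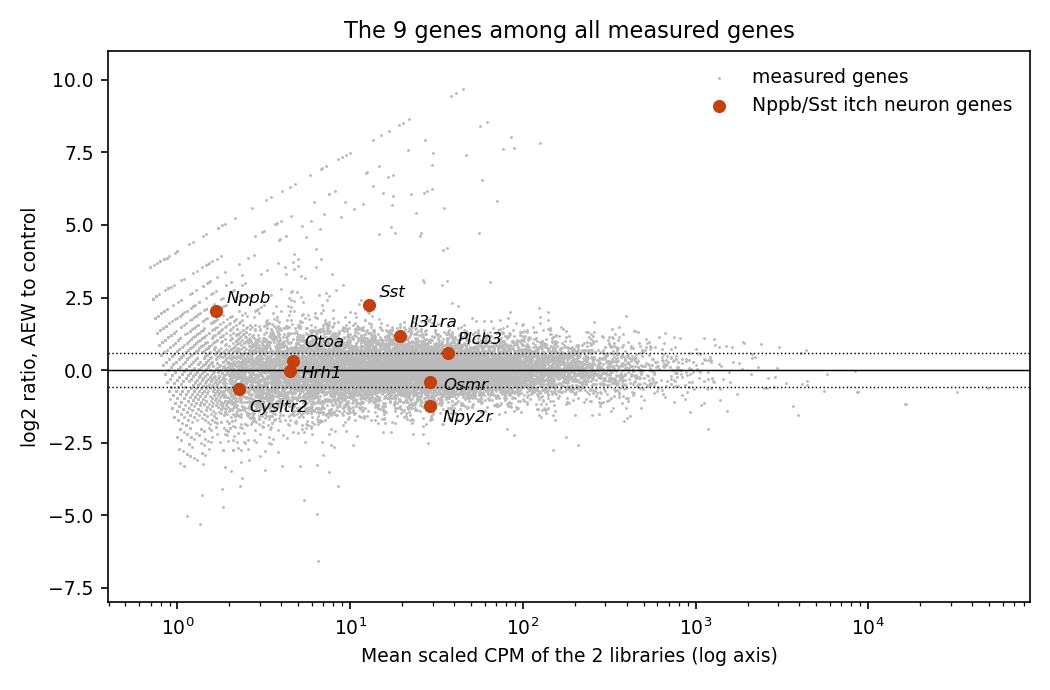
log2 ratio of AEW to control against the mean scaled CPM (log axis) for measured genes with at least 1 count in each library (grey), with the 9 genes in orange and dotted lines at 1.5-fold. Nppb lies among genes of low counts, where ratios spread widely, while Sst lies at a log2 ratio of 2.24, a ratio that 2.39% of measured genes reach or exceed.

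The genes with levels most like those of Sst and Il31ra were found by distance in the plane of log2 CPM of the 2 libraries, which rests on 2 values per gene. Nearest to Sst were Slitrk3 with 40 and 296 counts at a distance of 0.10, Syndig1l with 46 and 299 at 0.18, and Epn3 with 48 and 305 at 0.23. Nearest to Il31ra were Htr3a with 108 and 397 counts at a distance of 0.014, Apc2 with 108 and 385 at 0.050, and Stac2 with 103 and 397 at 0.055. Htr3a encodes a subunit of the serotonin-gated channel.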

How the data were processed

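RNA of mouse dorsal root ganglia was measured in 1 control and 1 AEW library. Trizol extraction and a Lexogen QuantSeq kit with 500 ng of total RNA were used, per the labels' protocols. Per the submitters' processing notes, Bowtie2, bedtools and build mm10 were used; the sources used here do not give versions, annotation, use of strand or treatment of repeated matches. The authors deposited raw counts, whole numbers of reads for each gene symbol. A set of 35 symbols on 79 rows occurred more than once and was kept in totals and left out of calls.

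From the deposited counts, TMM factors of 0.970 (control) and 1.03 (AEW) were computed in R 4.3.3 with edgeR 4.0.16. Ratios have exact conditional binomial (Clopper-Pearson) 95% intervals, computed with scipy 1.17.1; AEW over control values of pairs have exact conditional odds ratio intervals. Reads without molecular identifiers are not independent molecules, so intervals and floors (3 counts) cover counting error only. With 1 library per group no model was fitted. Calling was tested on simulated data. The 9 genes, the lists and the naming rule were chosen with earlier results of these data known. The rule named every member and a fixed set of pathway genes. From each list it also named up to 2 genes called higher, those with the highest lower interval bounds. Up to 2 called lower were named by the lowest upper bounds. Genes that the text singles out beyond this rule (Cpe, Nppa, Sstr1, Pax2, Il31, Lif and the rest of the called genes) were chosen after their values were seen. Alternatives were DESeq2 1.42.0 size factors, total counts, upper quartile, 2 pan-neuronal scalings, other count limits, thinning, stricter calls, no keratin genes, and GC content of the longest transcript in 50 bins, which covered 96.3% of measured genes. RefSeq promoter windows matched all 9 genes.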

Additional observations from a re-analysis of the deposited data

How the results depend on the processing

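Of 106 log2 ratios that the 9 genes had under 12 alternatives (2 of them, the summed pan-neuronal count and GC content, added after the data were seen), 90 kept their call. Some alternatives could change little. Leaving out the count filter could not alter any of the 9 measured genes. The higher count limit and the stricter calling rules could only remove a value or a call. With a summed count of at least 100 required, Nppb and Cysltr2 had no value, which ends the call of Nppb and leaves 3 members higher. Scaling on the median ratio of the pan-neuronal markers gave Nppb 1.11, Il31ra 0.27, Osmr -1.32, Hrh1 -0.96, Cysltr2 -1.57, Plcb3 -0.31 and Otoa -0.60, with 1 member higher and 5 lower. Scaling on their summed count gave Il31ra 0.50, Osmr -1.09, Hrh1 -0.73, Cysltr2 -1.33 and Plcb3 -0.080, with 2 higher and 4 lower. The 2 scalings shift the median of all genes by -0.91 and -0.68, and gave 441 and 647 measured genes higher, 9855 and 7694 lower, and of the genes in the pathway lists 0 and 0 higher and 40 and 32 lower, against 8 and 13. Sst and Npy2r kept their calls under every alternative run, at log2 ratios from 1.32 to 2.32 and from -2.13 to -1.11. Plcb3 was not called under upper quartile scaling (0.57), after GC correction (0.45), or at 2-fold or with an interval that excludes 1.5-fold (0.60). At 2-fold, 1223 measured genes were higher and 1018 lower, with 3 and 8 pathway genes. With an interval that excludes 1.5-fold, 1327 and 1071 were, with 5 pathway genes higher. Otoa at -0.37 on the summed count and Hrh1 at 0.04 under total counts changed sign without a call. Of 37 within-library ratios, 34 did not change in whether the interval excludes 1 with the AEW library thinned; Nppb to the pan-neuronal sum (log2 1.11), Nppb to Trpv1 (1.12) and Npy2r to Npy (0.18) then had intervals that include 1. No paired analysis was possible because each group is 1 library without a replicate number, and no library could be left out.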
